A study of Mus musculus with 6 samples.

Results

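Axon guidance genes were examined in cultured mouse calvarial preosteoblasts, the precursors of bone-forming osteoblasts. The 63 genes were taken by symbol from the 17001 rows of the expression table and comprised 20 semaphorins, 11 plexins and neuropilins, 8 ephrins, 14 Eph receptors, 4 netrins and 6 netrin receptors. The donors were mice at an age of 3 days, and the isolated cells were grown in α-MEM with 10% FBS. The control group held 3 libraries from NELL2 fx/fx mice, in which Nell2 carries loxP sites on each allele, and the cKO group held 3 libraries from Col1-cre; NELL2 fx/fx mice, which share these floxed alleles and also carry Cre recombinase under a Col1a1 promoter fragment. Cre is therefore present only in cells that use this promoter, the cultures were not sorted, and neither the number of pups behind a library nor the strain is given in the sources used here. The comparison asks what loss of NELL2, a secreted glycoprotein, does to gene expression in these cells.

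Semaphorins, ephrins and netrins are families of secreted or membrane-bound cues that steer growing axons, vessels and migrating cells. Semaphorins act through plexins, which regulate small GTPases and the cytoskeleton, and secreted class 3 semaphorins mostly need a neuropilin as coreceptor. Ephrins are themselves anchored in the membrane, so that they and the Eph receptor tyrosine kinases signal in both directions between touching cells. Netrins act through DCC, neogenin and the UNC5 receptors. In bone, several of these pairs, such as SEMA3A with neuropilin-1, SEMA4D with plexin-B1 and ephrin-B2 with EphB4, are known to pass signals between osteoblasts, osteoclasts and nerves.

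Values are FPKM as the authors deposited them, that is, sequenced fragments scaled to transcript length and to the size of the library, and sequencing depth is unknown from them. The FPKM of a library summed to between 573307 and 606428. For *Nell2*, the controls measured 3.17, 2.59 and 1.88 FPKM and the libraries labelled cKO 5.64, 1.61 and 5.74, in the order of replicates 1, 2 and 3 that all values below follow. On average the targeted gene was thus not lower in the libraries labelled cKO (log2 fold change 0.48, SE 0.37, adjusted p = 0.591, limma). Only cKO replicate 2 lay below the controls, and all directions below follow the labels. The paper reports that qRT-PCR and western blotting showed deletion of NELL2 in calvarial preosteoblasts of these mice. The FPKM used here are given per gene symbol and do not separate exons. The osteoblast lineage was present in all 6 libraries, with *Col1a1* between 8052.61 and 8578.05 FPKM and *Runx2* between 10.98 and 14.71. Of the defining neuronal genes, *Elavl4* did not exceed 0.04, *Snap25* 0.37 and *Syt1* 0.53 FPKM in any library, and the summed level of 6 endothelial markers was between 1.78 and 3.78 FPKM. Y-linked genes were expressed in 1 control library and in 2 libraries labelled cKO.

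Expression of the guidance genes was broad in these cells. Of the 63 genes, 43 had at least 1 FPKM in all 6 libraries and 14 had at least 10, while 13 stayed under 1 FPKM in every library. The median of their mean levels was 4.41 FPKM, near the 4.74 of all rows in the table, and 30 of the 63 lay above the table's median. Receptors carried more transcript than ligands: summed over 31 receptor genes the level was between 355.51 and 370.55 FPKM per library, and over 32 ligand genes between 170.7 and 192.78.

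**Figure D1:**
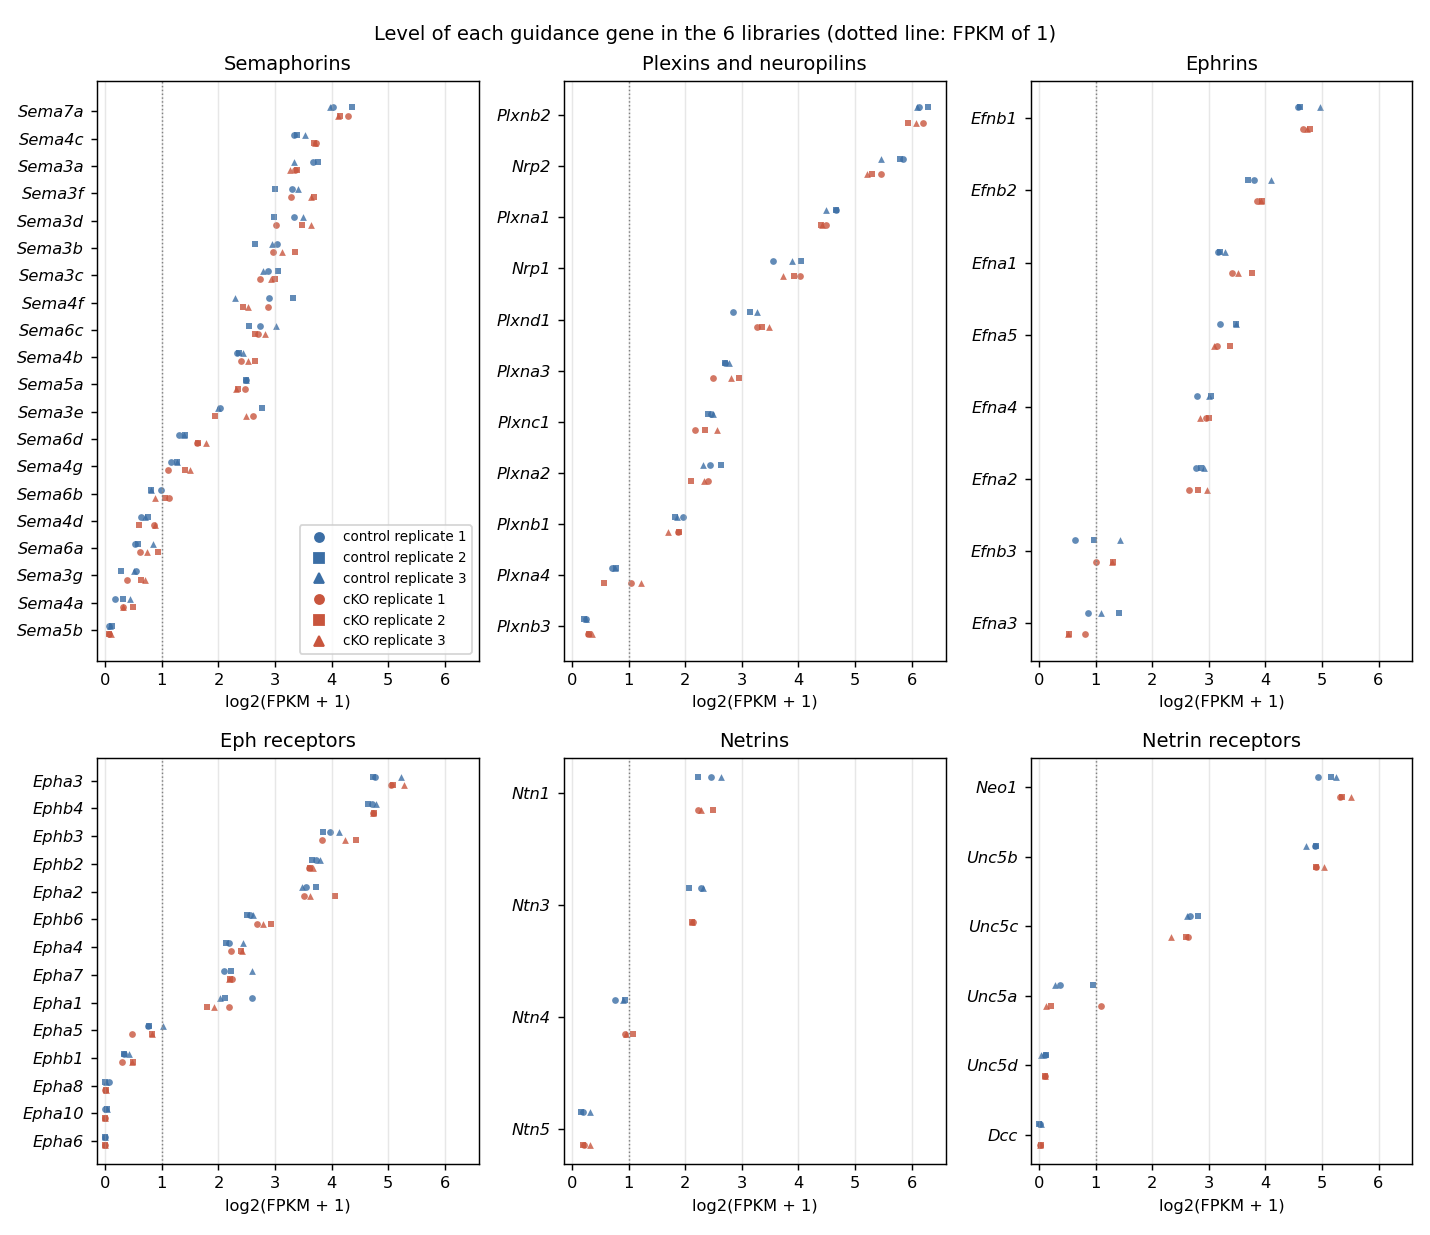
Level of each of the 63 guidance genes on the log2(FPKM + 1) scale (horizontal axis), with genes ordered by mean level within each role. Each marker is 1 library (blue, control; red, cKO; circle, square and triangle, replicates 1, 2 and 3), and *Plxnb2*, *Nrp2*, *Neo1*, *Epha3*, *Unc5b*, *Efnb1* and *Ephb4* are the genes farthest to the right.

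Plexin-B2 and neuropilin-2 dominated the semaphorin receptors. *Plxnb2*, which encodes a receptor for class 4 semaphorins, was 69.22, 77.03 and 67.25 FPKM in the control replicates and 72.21, 60.36 and 66.24 in the cKO replicates. With a mean of 68.7 ± 5.65 FPKM (SD, n = 6 libraries) it stood above 93.0% of the rows. *Plxnb2* and *Nrp2* together held 61.8% to 67.9% of the summed FPKM of the plexins and neuropilins. Below them followed *Plxna1* (mean 21.9 ± 1.92), a signalling partner of the neuropilins, and *Nrp1* (13.6 ± 1.82), the SEMA3A coreceptor. The ranges of these 4 genes over the 6 libraries did not overlap, so their order was larger than the spread between libraries. *Plxnd1*, the receptor of SEMA3E, had a mean of 8.45 FPKM. *Plxna3* (5.70), *Plxnc1* (4.32), *Plxna2* (4.20) and *Plxnb1* (2.60) were lower, and neighbouring members from *Plxnd1* to *Plxna2* overlapped in range. *Plxnb1*, the receptor through which SEMA4D acts on osteoblasts, was thus at a level 22.4 to 30.6 times below *Plxnb2* within a library. *Plxna4* (0.812) and *Plxnb3* (0.207) did not pass the filter on low values, which asked for 1 FPKM or more in 3 or more of the libraries.

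Semaphorin ligands were spread more evenly. *Sema7a*, a GPI-anchored semaphorin that binds plexin-C1 and β1 integrin, was the highest with 15.21, 19.55 and 14.61 FPKM in control and 18.46, 16.82 and 16.39 in cKO, and its range lay above that of every other semaphorin. *Sema4c*, a ligand of plexin-B2, *Sema3a*, *Sema3f*, which prefers neuropilin-2, and *Sema3d* followed with means of 10.9, 10.1, 9.60 and 9.16 FPKM. Their ranges overlapped, so no order among them exceeded the spread. The means of *Sema3b*, *Sema3c*, *Sema4f*, *Sema6c*, *Sema4b*, *Sema5a* and *Sema3e* lay between 4.08 and 7.15 FPKM, and those of *Sema6d*, a transmembrane ligand of plexin-A1, and *Sema4g* were 1.89 and 1.45. *Sema4d*, known as an osteoclast product that restrains osteoblasts, was between 0.51 and 0.83 FPKM and did not pass the filter, and neither did *Sema6b*, *Sema6a*, *Sema3g*, *Sema4a* and *Sema5b*. *Sema4c* was 13.7 to 23.4 times as high as *Sema4d* in the same library.

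Among the ephrins, the transmembrane B ligands led. *Efnb1*, whose loss disturbs suture and skeletal patterning, was 22.78, 23.61 and 30.3 FPKM in control and 24.41, 26.62 and 25.76 in cKO. *Efnb2* was 12.85, 11.96 and 16.06 in control and 13.42, 14.38 and 14.24 in cKO. *Efnb1* was above all other ephrins in every library, and both genes overlapped between the groups. The GPI-anchored A ligands *Efna1*, *Efna5*, *Efna4* and *Efna2* had means of 9.61, 8.87, 6.68 and 6.13 FPKM. *Efnb3* was between 0.56 and 1.69 FPKM and *Efna3* between 0.42 and 1.66.

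*Epha3*, a receptor mainly for A ephrins, and *Ephb4*, the receptor of ephrin-B2, were the highest Eph receptors, with means of 31.9 ± 5.07 and 25.5 ± 0.857 FPKM (SD, n = 6 libraries). *Ephb4* was 25.28, 24.01 and 26.65 FPKM in control and 25.43, 25.73 and 25.67 in cKO. It was the steadier of the pair. *Ephb4* was 1.66 to 2.01 times as high as *Efnb2* within a library. *Ephb3* followed with values between 13.21 and 20.45 FPKM, then *Ephb2* and *Epha2* with means of 11.8 and 11.7 and overlapping ranges. *Ephb6*, which lacks kinase activity, *Epha4*, *Epha7* and *Epha1* had means between 3.37 and 5.44 FPKM. *Epha5* (0.720) and *Ephb1* (0.310) did not pass the filter. *Epha8* and *Epha10* did not exceed 0.05 FPKM, and *Epha6* was listed at 0 in all 6 libraries.

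In the netrin system, *Neo1* and *Unc5b* lay above the ligands and the other receptors in every library. *Ntn1* was 4.5, 3.67 and 5.17 FPKM in control and 3.67, 4.59 and 3.87 in cKO, and *Ntn3* was between 3.18 and 3.99. *Ntn4* had a mean of 0.907 FPKM and *Ntn5* of 0.175. *Neo1*, which encodes neogenin, a receptor for netrins and for repulsive guidance molecules, had a mean of 37.4 ± 5.07 FPKM, and *Unc5b* of 28.6 ± 2.08 (SD, n = 6 libraries). These 2 genes held 90.0% to 94.7% of the summed FPKM of the netrin receptors. *Dcc* did not exceed 0.02 FPKM in any library. *Unc5c* had a mean of 5.14 FPKM, *Unc5a* ranged from 0.09 to 1.14, and *Unc5d* did not exceed 0.09. *Neo1* was 6.53 to 11.5 times as high as *Ntn1* within a library. Of the repulsive guidance molecule genes, *Rgma* and *Rgmb* were between 5.84 and 7.6 FPKM and *Hjv* between 0.21 and 0.71.

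To compare the groups, log2(FPKM + 1) was tested with limma over the 11590 rows that passed the filter, of which 44 were guidance genes. Because fold changes refer to log2(FPKM + 1), those of low genes come out smaller than on the FPKM scale. None of the 44 had an adjusted p under 0.05 after Benjamini-Hochberg adjustment over all tested rows, and the count over all rows was also 0, a background of 0.0%. At an unadjusted p under 0.05, 6 of the 44 (13.6%) passed, against 13.1% of all tested rows. Their share was thus near the background. By direction, 5 of the 44 had such a p and were higher in the libraries labelled cKO, against 622 of the 11590 tested rows (5.37%). Lower with such a p was 1 of the 44, against 899 of the 11590 (7.76%). The median log2 fold change was 0.02 over the 44 genes and -0.02 over all tested rows. The values of 7 of the 44 (15.9%) did not overlap between the groups, against 18.3% of all tested rows. Without overlap, 5 of the 44 were higher in the libraries labelled cKO, against 755 of the 11590 tested rows (6.51%), and 2 of the 44 were lower, against 1368 (11.8%). Fewer cells of a type and less RNA per cell cannot be told apart in bulk libraries.

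Neuropilin-2 was the only tested member with an unadjusted p under 0.05 that was lower in the libraries labelled cKO. *Nrp2* was 56.35, 54.31 and 43.12 FPKM in control and 42.96, 38.3 and 35.94 in cKO. Each cKO value lay below each control value, but control replicate 3 and cKO replicate 1 were almost equal. The mean was 51.3 ± 7.12 FPKM in control and 39.1 ± 3.57 in cKO (SD, n = 3), which gave a log2 fold change of -0.38 (SE 0.12, adjusted p = 0.312, limma). *Nrp1* did not share this pattern in its values, with 10.75, 15.44 and 13.72 FPKM in control and 15.26, 14.14 and 12.18 in cKO (log2 fold change 0.06, 95% interval -0.27 to 0.39, adjusted p = 0.861, limma), and the difference between both genes was not tested. The level of *Nrp2* relative to *Nrp1* was 3.14 to 5.24 in control libraries and 2.71 to 2.95 in cKO libraries. This ratio is no separate result either, as the groups of *Nrp2* do not overlap.

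*Neo1* was the most abundant member that was higher in the libraries labelled cKO at an unadjusted p under 0.05. Its level was 29.38, 34.95 and 37.17 FPKM in control and 38.9, 39.71 and 44.5 in cKO, so that the groups did not overlap. The log2 fold change was 0.28 (SE 0.10, adjusted p = 0.342, limma), and without control replicate 1 it was 0.18. *Unc5b* was 28.48, 28.63 and 25.23 FPKM in control and 28.58, 28.78 and 31.81 in cKO, and these values overlapped (log2 fold change 0.11, 95% interval -0.07 to 0.30, adjusted p = 0.557, limma). Summed over the 6 netrin receptor genes, the level was between 63.58 and 70.64 FPKM in control and between 73.79 and 80.54 in cKO, and the sums of the other 5 roles overlapped between the groups. *Neo1* alone made up 46.2% to 55.3% of the netrin receptor sum. Without it, the sums were 34.2, 35.69 and 30.62 FPKM in control and 35.0, 34.08 and 36.04 in cKO, which overlapped.

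**Figure D2:**
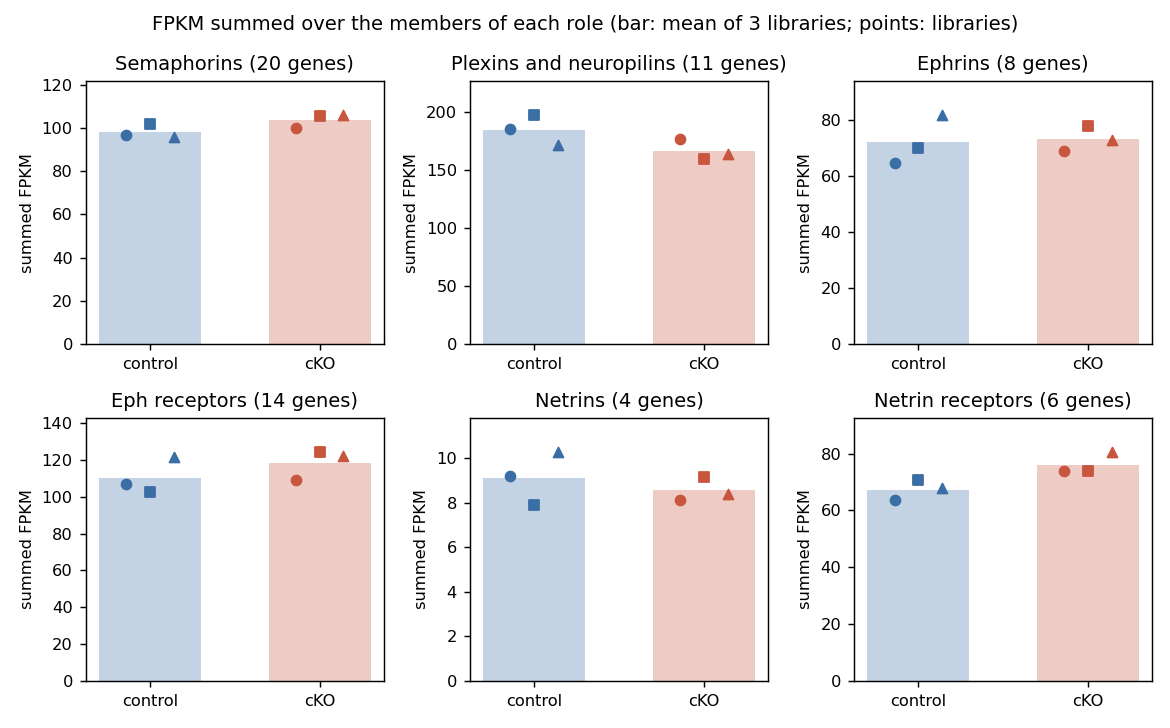
FPKM summed over the members of each role (vertical axis, starting at 0), with bars for the mean of 3 libraries and markers for single libraries (circle, square and triangle, replicates 1, 2 and 3). The sums of the netrin receptors did not overlap between control (63.58 to 70.64) and cKO (73.79 to 80.54), but did without *Neo1*, and those of the other roles overlapped.

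Among the semaphorins, *Sema4c* and *Sema6d* were higher in all 3 libraries labelled cKO. *Sema4c* was 9.15, 9.44 and 10.51 FPKM in control and 12.17, 11.91 and 12.09 in cKO (log2 fold change 0.29, SE 0.07, adjusted p = 0.312, limma). *Sema6d* was 1.47, 1.65 and 1.63 FPKM in control and 2.06, 2.11 and 2.43 in cKO (log2 fold change 0.31, SE 0.07, adjusted p = 0.312, limma). The cKO values of *Sema4c* were close to each other (SD 0.133), and *Sema6d* stayed at a low level in both groups. *Plxnb2*, the receptor of SEMA4C, overlapped between the groups (log2 fold change -0.10, 95% interval -0.31 to 0.11, adjusted p = 0.632, limma). Its level relative to *Sema4c* was 6.40 to 8.16 in control and 5.07 to 5.93 in cKO. As *Sema4c* was named because its groups do not overlap, this ratio is no separate result, and it was not tested. *Sema5a* was 4.61, 4.63 and 4.63 FPKM in control and 4.54, 4.07 and 3.97 in cKO. The control values were nearly equal and cKO replicate 1 lay just below them, so that the groups did not overlap while the unadjusted p was over 0.05 (log2 fold change -0.12, SE 0.06, adjusted p = 0.474, limma).

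The osteoprotective ligand gene *Sema3a* was 11.73, 12.48 and 9.12 FPKM in control and 9.22, 9.53 and 8.6 in cKO. Control replicate 3 lay within the cKO range, so the groups overlapped (log2 fold change -0.25, 95% interval -0.52 to 0.02, adjusted p = 0.403, limma). *Plxna1* was 24.48, 24.19 and 21.32 FPKM in control and 21.34, 20.07 and 20.29 in cKO, and here too control replicate 3 overlapped with cKO replicate 1 (log2 fold change -0.17, 95% interval -0.35 to 0.0025, adjusted p = 0.382, limma). *Plxnd1* was 6.19, 7.87 and 8.63 FPKM in control and 8.58, 9.25 and 10.16 in cKO, overlapping by the same 2 libraries (log2 fold change 0.28, SE 0.12, adjusted p = 0.385, limma). Without control replicate 1, its lowest library, the log2 fold change was 0.16.

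In the ephrin and Eph families, *Efna1* and *Ephb6* were higher in all 3 libraries labelled cKO. *Efna1* was 7.92, 8.22 and 8.82 FPKM in control and 9.59, 12.63 and 10.48 in cKO (log2 fold change 0.35, SE 0.10, adjusted p = 0.312, limma), with cKO replicate 2 the highest. *Ephb6* was 4.89, 4.64 and 5.14 FPKM in control and 5.45, 6.65 and 5.88 in cKO (log2 fold change 0.24, SE 0.08, adjusted p = 0.316, limma). In both genes cKO replicate 1 lay nearest to the controls and cKO replicate 2 farthest from them. For the pair known for coupling of osteoclasts and osteoblasts, the log2 fold change was 0.05 for *Efnb2* (95% interval -0.21 to 0.30, adjusted p = 0.868, limma) and 0.02 for *Ephb4* (95% interval -0.13 to 0.16, adjusted p = 0.923, limma). For *Efnb1* it was 0.01 (95% interval -0.25 to 0.28). The signs of these 3 values and of that of *Nrp1* turned when libraries were left out, and that of *Efnb1* also when the libraries were rescaled to the same sum, so no direction is given for them.

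Of the 19 members under the filter, 2 did not overlap between the groups, and of all 5411 rows under the filter 7.95% did not. *Efna3* lay just outside the filter, as did *Plxna4* and *Sema6b*, whose groups overlapped. *Efna3* was at 0.82, 1.66 and 1.14 FPKM in control and 0.75, 0.44 and 0.42 in cKO. Its mean was 1.21 ± 0.424 FPKM in control and 0.537 ± 0.185 in cKO (SD, n = 3). Without the filter its log2 fold change was -0.51 (SE 0.16, adjusted p = 0.381, limma). *Efnb3*, with 0.56, 0.95 and 1.69 FPKM in control and 1, 1.49 and 1.43 in cKO, lay just inside it and overlapped. *Plxnb3*, the receptor of SEMA5A, was between 0.16 and 0.18 FPKM in control and between 0.21 and 0.28 in cKO.

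**Figure D3:**
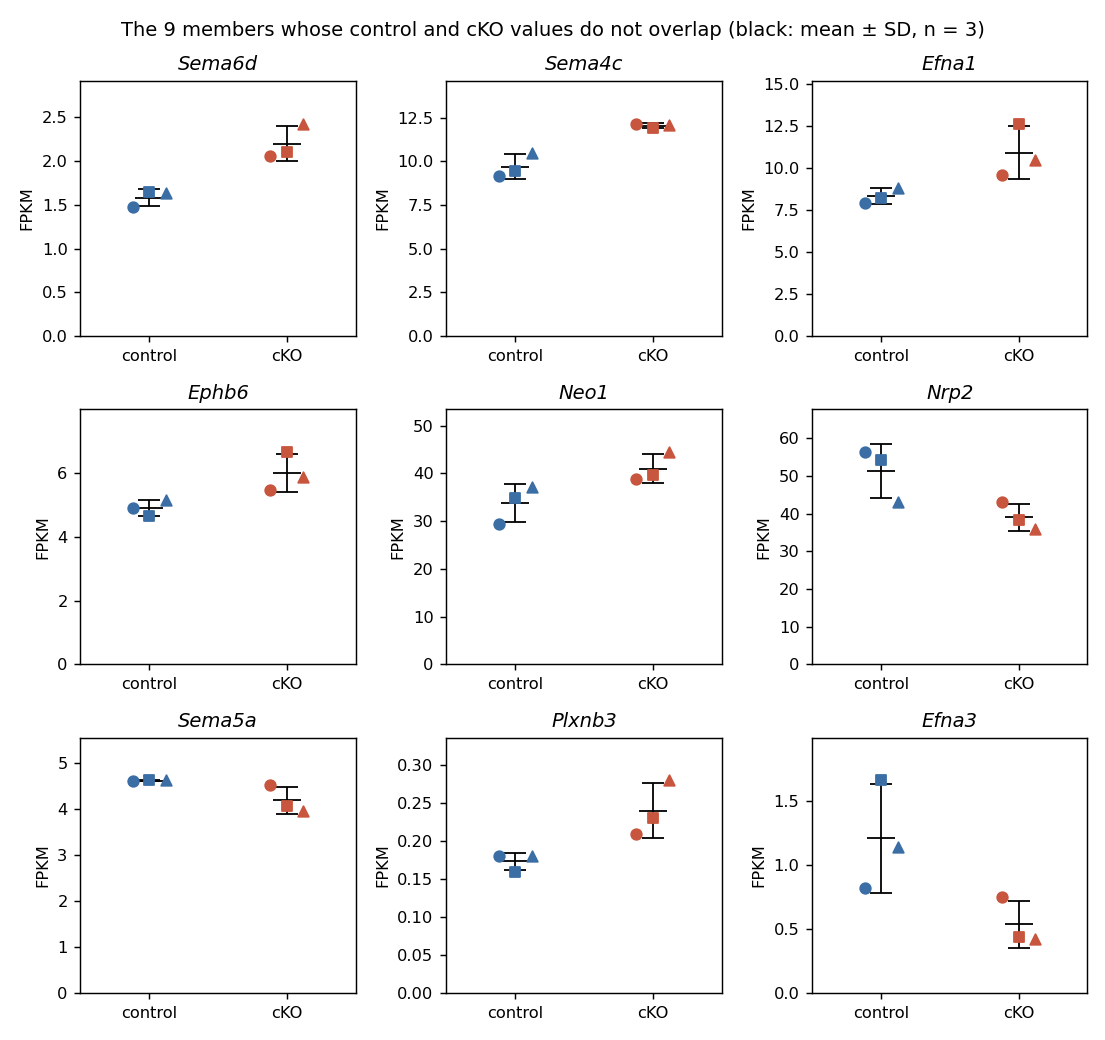
FPKM (vertical axes, starting at 0) of the 9 members whose control (blue) and cKO (red) values do not overlap, with mean ± SD (n = 3) in black and replicates 1, 2 and 3 as circle, square and triangle. In 8 of the 9 genes, cKO replicate 1 is the cKO library nearest to the controls.

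In these 9 genes the libraries of a group were not equally far apart. The cKO library nearest to the controls was replicate 1 in 8 of the 9, *Sema4c* being the exception. The control library nearest to the cKO group was replicate 3 alone in 5 of the 9. Without cKO replicate 1, 13 of the 44 guidance genes (29.5%) had an unadjusted p under 0.05, against 21.3% of all tested rows in that fit. Without control replicate 3 the number was also 13, against 13.8% of all tested rows, and with all libraries it was 6, against 13.1%. With each of the other libraries left out, the share was 9.09% or 11.4%, against 7.41% to 8.32% of all tested rows. These 2 replicates were singled out by genes chosen because their groups do not overlap, so the larger counts without them show nothing further. The number with an adjusted p under 0.05 was 0 in each case, while that of all tested rows was 334 without cKO replicate 1 and 2 without control replicate 3.

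**Figure D4:**
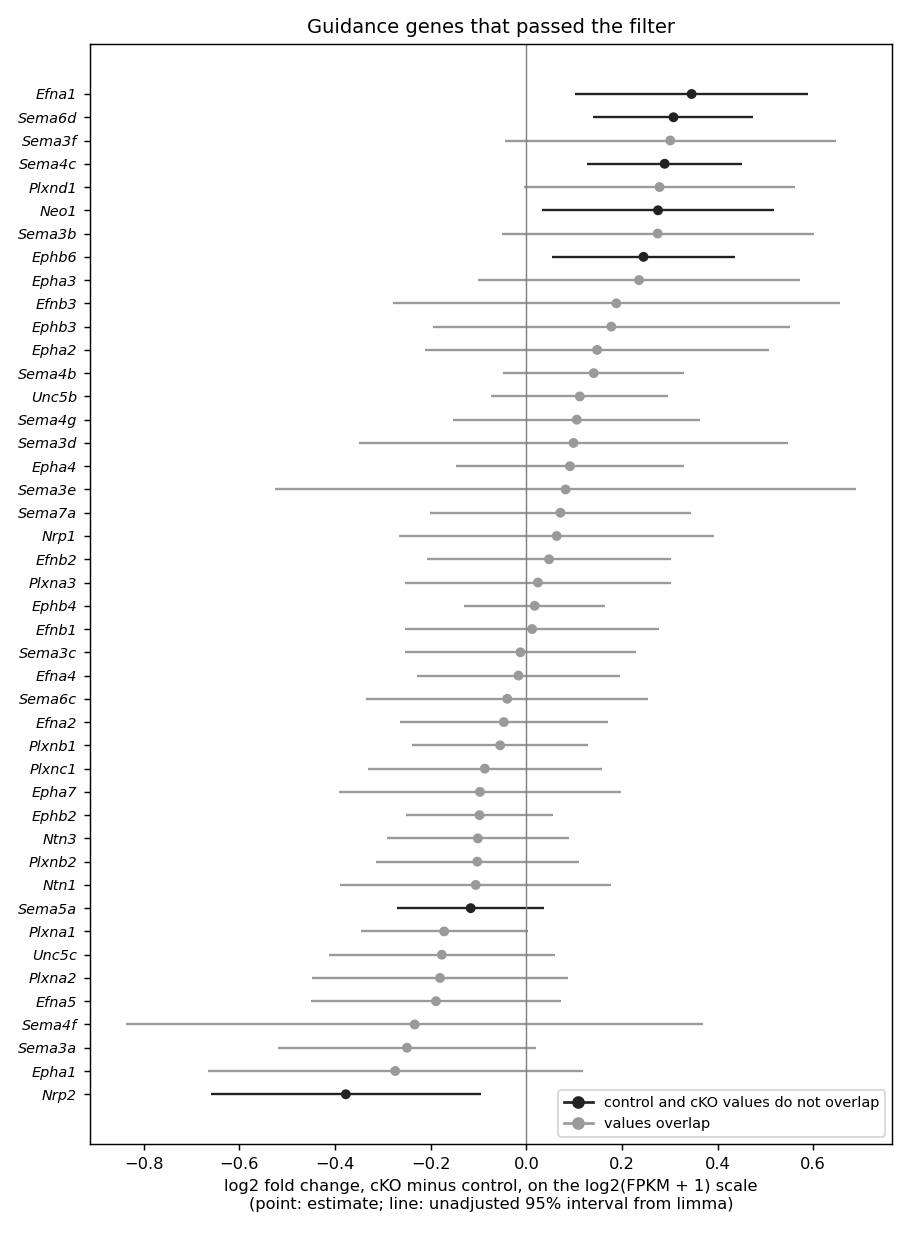
Log2 fold change of cKO minus control (horizontal axis, log2(FPKM + 1) scale) of the 44 guidance genes that passed the filter, with the unadjusted 95% interval of limma as a line. Black marks the 7 genes whose values do not overlap between the groups; the estimates run from -0.38 for *Nrp2* to 0.35 for *Efna1*.

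Markers of other cell types also differed between the groups. The summed level of 5 epithelial markers was between 0.46 and 13.39 FPKM in control and between 17.13 and 42.64 in cKO. All 3 of them that passed the filter had an unadjusted p under 0.05, against 13.1% of all tested rows. Of these, *Epcam* was at 0.47 FPKM or less in control and passed the filter only through the cKO libraries, so its difference is no separate support. *Krt8* overlapped between the groups. The glial and neural crest gene *Sox10* was 0.47, 0.51 and 1.28 FPKM in control and 1.32, 2.25 and 2.05 in cKO. The 6 neural and glial markers summed to between 1.37 and 3.41 FPKM in control and between 2.87 and 4.73 in cKO, which overlapped. Of the 7 osteoblast lineage markers, 4 (57.1%) had an unadjusted p under 0.05, namely *Sp7*, *Alpl*, *Bglap* and *Ibsp*. Each of these was lower in all 3 libraries labelled cKO, and 7.76% of all tested rows had such a p in that direction. *Runx2*, *Col1a1* and *Col1a2* overlapped between the groups. *Sp7* was 17.57, 16.86 and 13.2 FPKM in control and 12.44, 10.4 and 10.31 in cKO. The summed levels of macrophage, endothelial, muscle and cartilage markers overlapped between the groups. The part of these cells and of osteoblast maturation in the values of the guidance genes was not tested.

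The 3 libraries with Y-linked expression were compared among themselves. The log2 difference of cKO from control there, 2 libraries against 1, was -0.13 for *Nrp2*, 0.16 for *Neo1*, 0.19 for *Sema4c*, 0.30 for *Sema6d*, 0.17 for *Efna1* and 0.12 for *Ephb6*. In the 3 libraries without it, 1 against 2, it was -0.52, 0.30, 0.33, 0.28, 0.59 and 0.41 in the same order. These genes were named because their groups do not overlap, which fixes the sign in any subset, so the signs show nothing further and the differences carry no test.

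Other genes of the same pathways were read from the same fit. Of 73 genes listed as signalling partners or coreceptors, 72 were in the table and 58 passed the filter; none had an adjusted p under 0.05, and 9 of the 58 (15.5%) had an unadjusted p under 0.05, against 13.1% of all tested rows. Of the 25 tested plexin partners, 5 were among them. *Rras*, a small GTPase that plexins switch off, was 70.43, 60.33 and 66.56 FPKM in control and 73.41, 84.31 and 84.91 in cKO (log2 fold change 0.29, SE 0.09, adjusted p = 0.312, limma). *Farp2*, an exchange factor that acts in the response to SEMA3A, was 7.55, 7.71 and 6.74 FPKM in control and 6.13, 5.87 and 5.6 in cKO (log2 fold change -0.28, SE 0.07, adjusted p = 0.312, limma). Neither of these genes overlapped between the groups. *Itga1*, an integrin α chain, was higher in cKO with 2.84, 3.01 and 3.66 FPKM in control and 4.06, 5.83 and 4.39 in cKO. The kinase gene *Fyn* had a log2 fold change of 0.39 and *Crmp1*, a collapsin response mediator, of -0.43, with adjusted p of 0.315 and 0.363 from limma. The value of *Crmp1* was -0.22 without cKO replicate 2, in which it was lowest at 1.49 FPKM.

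Of the 17 tested Eph partners, 3 (17.6%) had an unadjusted p under 0.05, against 13.1% of all tested rows. All 3 were lower in the libraries labelled cKO, which is again 17.6% of the 17 partners, against 7.76% of all tested rows for that direction. *Chn1*, a Rac-specific GTPase-activating protein downstream of EphA4, was 3.14, 3.47 and 3.44 FPKM in control and 2.75, 2.76 and 2.22 in cKO. The exchange factor genes *Kalrn* and *Vav2* had log2 fold changes of -0.21 and -0.18, with adjusted p of 0.321 and 0.336 from limma. The values of these 3 genes did not overlap between the groups, nor did those of *Rasa1*, a Ras GTPase-activating protein gene with a log2 fold change of -0.03, which makes 4 of the 17 (23.5%, against 18.3% of all tested rows). Of the 16 tested netrin partners, 1 (6.25%) had an unadjusted p under 0.05, against 13.1% of all tested rows. This was *Siah2*, a ubiquitin ligase (log2 fold change 0.40, SE 0.15, adjusted p = 0.34, limma). Its values of 6.26, 7.82 and 7.28 FPKM in control and 7.66, 10.17 and 11.51 in cKO overlapped, as did those of all other tested netrin partners.

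On GRCm38, in GENCODE release M21, which may differ from the annotation the authors used, *Nrp2* lies on chromosome 1 from 62703285 to 62818695 on the plus strand, *Neo1* on chromosome 9 from 58874687 to 59036441 on the minus strand and *Sema4c* on chromosome 1 from 36548639 to 36558349 on the minus strand. Of the exonic bases of *Sema4c*, 7.27% also lie in exons of a gene on the opposite strand, *D430040D24Rik*, as do 14.1% of those of *Efna3* (*Gm15998*) and 10.7% of those of *Plxna1* (*Gm26811*). Whether reads were counted by strand is not given in the sources used here, so reads of these gene pairs may be shared. The exons of *Nrp2*, *Neo1*, *Sema6d*, *Efna1* and *Ephb6* share no base with another gene in that annotation.

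The promoters of the guidance genes were read as a property that the choice by symbol did not use. Of the 63 genes, 54 matched the RefSeq promoter table of GRCm38.p6, which gives 250 bases before to 50 after a transcription start, with 68 promoters in all. The GC box GGGCGG, searched on both strands, occurred in 51 of the 68 (75.0%) and in 35.7% of all 32851 promoters of the table. Among members that passed the filter it occurred in 36 of 46 promoters (78.3%), against 63.8% of the 11850 promoters of all rows that passed. The TATA motif TATAAA, also on both strands, occurred in 1 of the 68 and in 13.6% of all. Among members that passed the filter it occurred in 1 of 46 promoters (2.17%), against 6.98% of those of all rows that passed. The windows of *Nrp2* and *Neo1*, the most abundant members whose groups did not overlap, are printed beside that of *Sema3a*, a ligand gene of the same system whose window is poor in CG dinucleotides. Capitals mark GGGCGG or its reverse complement.
Nrp2, chr1:62703067-62703366, plus strand, 37 CG dinucleotides, GC content 70.7%: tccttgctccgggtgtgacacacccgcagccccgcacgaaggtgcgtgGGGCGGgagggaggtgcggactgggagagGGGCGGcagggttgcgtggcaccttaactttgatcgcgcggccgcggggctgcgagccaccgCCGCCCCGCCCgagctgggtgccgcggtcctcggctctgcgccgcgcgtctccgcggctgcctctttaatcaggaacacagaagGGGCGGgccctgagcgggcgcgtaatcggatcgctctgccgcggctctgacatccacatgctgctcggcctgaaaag
Neo1, chr9:59036392-59036691, minus strand, 54 CG dinucleotides, GC content 82.7%: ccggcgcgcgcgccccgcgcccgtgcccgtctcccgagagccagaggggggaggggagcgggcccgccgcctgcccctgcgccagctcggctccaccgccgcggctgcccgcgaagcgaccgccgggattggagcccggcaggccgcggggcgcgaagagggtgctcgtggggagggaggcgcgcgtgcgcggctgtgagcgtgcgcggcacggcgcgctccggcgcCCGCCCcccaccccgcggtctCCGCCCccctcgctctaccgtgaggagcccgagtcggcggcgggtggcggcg
Sema3a, chr5:13396534-13396833, plus strand, 2 CG dinucleotides, GC content 41.3%: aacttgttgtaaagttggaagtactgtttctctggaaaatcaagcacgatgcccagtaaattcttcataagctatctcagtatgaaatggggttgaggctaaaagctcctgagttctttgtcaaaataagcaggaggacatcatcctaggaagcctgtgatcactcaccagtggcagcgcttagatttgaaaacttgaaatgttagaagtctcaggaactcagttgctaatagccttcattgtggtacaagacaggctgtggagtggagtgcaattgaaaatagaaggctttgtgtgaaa
The *Sema3a* window belongs to a RefSeq start that lies inside the GENCODE gene, which begins at 13125414, whereas the windows of *Nrp2* and *Neo1* lie at the gene's start in that annotation, so the windows are not alike in position. The motif was found 5 times in the *Nrp2* window and 2 times in that of *Neo1*, and it was not found in that of *Sema3a*. A match describes the letters of the window and is not evidence of a bound site.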

How the data were processed

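RNA was sequenced from 3 control and 3 cKO libraries of calvarial preosteoblasts. HISAT2 was used by the authors to map paired reads of 150 bp to build GRCm38. They deposited the result as FPKM with 2 decimals for each symbol in each library. The annotation release, the versions and the program that computed FPKM are not given in the sources used here. No column of values was left out. Depth cannot be read from FPKM, so no counting error is given, and p-values measure only the spread between these cultures.

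FPKM values are not counts, so log2(FPKM + 1) was tested with limma 3.58.1 in R 4.3.3 (lmFit, eBayes, two-sided, Benjamini-Hochberg adjustment) over 11590 rows with at least 1 FPKM in at least 3 libraries. The script was tested on simulated data. Sums, ratios and shares were taken on the FPKM scale.

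The guidance genes, partner lists, markers and settings were chosen with earlier results of these data known. Named genes are the 4 highest members of each role, members with an unadjusted p under 0.05 or with groups that do not overlap, members with known roles in bone, and partner genes with an unadjusted p under 0.05. Alternatives changed the pseudocount, the filter, the variance trend, the scaling between libraries, the replicate block and a Y-linked covariate, or left out each library.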

Additional observations from a re-analysis of the deposited data

How the results depend on the processing

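The number of guidance genes with an adjusted p under 0.05 was 0 under all 14 alternatives, and so was that of the partner genes. Over all tested rows it was 0 to 334 with a library left out (334 without cKO replicate 1, 2 without control replicate 3) and 0 under the other alternatives. The number of guidance genes with an unadjusted p under 0.05 was 6, and it was 4 to 13 with a library left out and 5 to 10 otherwise, with 13 both without control replicate 3 and without cKO replicate 1. Its share of the guidance genes was 29.5% in these 2 fits, against 13.8% and 21.3% of all tested rows. With each of the other libraries left out, the share was 9.09% or 11.4%, against 7.41% to 8.32%. The replicate block gave 10 (22.7%, against 12.6% of all tested rows), and the Y-linked covariate 5 (11.4%, against 10.5%). Deviations of same-numbered libraries from their group means correlated at 0.03, -0.17 and 0.21. Differently numbered libraries were not compared, so these values do not settle whether the replicate numbers pair the libraries. For *Nrp2*, *Neo1*, *Sema4c*, *Sema6d*, *Efna1*, *Ephb6* and *Sema5a* the adjusted p lay between 0.0815 and 0.776 under the 14 alternatives (limma); their sign with a library left out is fixed by groups that do not overlap. The log2 fold change of *Nrp2* was between -0.50 and -0.31 with a library left out and that of *Neo1* between 0.18 and 0.34. With a library left out, the estimates of *Plxnb2* (-0.17 to -0.04) and *Unc5b* (0.05 to 0.14) also moved by over 1.5 times. Signs turned for *Efnb1*, at -0.0017 with equal library sums, -0.034 with the Y-linked covariate and -0.062 to 0.14 with a library left out. They also turned with a library left out for *Efnb2* (-0.035 to 0.16), *Ephb4* (-0.019 to 0.054) and *Nrp1* (-0.071 to 0.17). The cause was not tested. On average *Nell2* was higher in the libraries labelled cKO under every alternative run, by 0.25 to 0.93 on the log2 scale with a library left out. The 0.93 was without cKO replicate 2, in which *Nell2*, at 1.61 FPKM, lay below every control. FPKM hides depth, so counting error in members near or under 1 FPKM is unknown.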
